A study of Mus musculus with 9 samples.

Results

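The 10 genes described here encode glucose transporters, glycolytic enzymes and a lactate transporter that exist in tissue-specific forms: Slc2a1, Slc2a4, Hk1, Hk2, Pfkm, Pfkp, Pkm, Ldha, Ldhb and Slc16a3. They were chosen by symbol, are 10 of 25468 genes with a value, and all 10 passed the minimum mean level of 1 FPKM that left 13514 genes for testing. Bulk RNA sequencing of wild-type (WT) mouse hearts gave 9 libraries. There were 3 libraries from hearts 1 day after acute myocardial infarction (AMI), 3 from hearts 7 days after it, and 3 from sham-operated hearts. The latter were labelled Sham and titled WT_Con, with no day of collection given. The labels give no strain, age or sex, and say only heart, not which share of the infarct a piece held. Hearts of Hdc-/- mice, which the series also mentions, were not analysed here. Nothing in the labels ties the libraries of a group to separate animals, and the p-values therefore reflect the spread between libraries, part of which may be technical.

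Glucose enters cardiomyocytes through GLUT4 (Slc2a4), which insulin and contraction move to the cell surface, and through the constitutive transporter GLUT1 (Slc2a1), which is more prominent in the fetal heart and in many non-muscle cells. Hexokinase traps glucose in the cell, phosphofructokinase commits it to glycolysis, pyruvate kinase makes pyruvate, and lactate dehydrogenase interconverts pyruvate and lactate. The adult heart is rich in the muscle forms Pfkm and the M1 form of pyruvate kinase, and in the H subunit of lactate dehydrogenase (Ldhb), which is typical of tissues that burn lactate. The M subunit (Ldha), the platelet form of phosphofructokinase (Pfkp), the M2 form of pyruvate kinase and the lactate exporter MCT4 (Slc16a3) are widely associated with glycolytic, proliferating or immune cells.

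Pyruvate kinase M1 and M2 come from the same gene, Pkm, by the choice between mutually exclusive exons. They are shown here because the groups differed in the estimated levels of the transcripts that hold them. Reads on the exons themselves were not counted. Both exons are 167 nt long and take the place of exon 9 of 11 in their transcripts. In the GENCODE M21 annotation of GRCm38, the M1 exon lies at chr9:59675029-59675195 and the M2 exon at chr9:59675568-59675734, both on the plus strand and both coding. GRCm38 is not the build the authors used (GRCm39), and these positions belong to the reference alone. The exons are given 5′ to 3′ and capitals mark the 64 bases that differ between them.
M1 exon: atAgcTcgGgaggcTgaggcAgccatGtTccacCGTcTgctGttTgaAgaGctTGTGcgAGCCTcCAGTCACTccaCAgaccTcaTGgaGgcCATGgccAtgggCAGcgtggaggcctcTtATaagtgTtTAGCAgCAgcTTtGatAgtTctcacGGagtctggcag
M2 exon: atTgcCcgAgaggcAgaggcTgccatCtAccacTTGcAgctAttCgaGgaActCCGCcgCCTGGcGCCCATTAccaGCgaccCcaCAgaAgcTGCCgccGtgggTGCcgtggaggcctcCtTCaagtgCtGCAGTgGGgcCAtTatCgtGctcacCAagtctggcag
The exons were 61.7% identical, 22 of the 55 whole codons encoded another amino acid, and both proteins had 531 residues. The transcripts shared their 8 other inner exons but not their full length, which was 2432 nt with M2 and 2041 nt with M1 for the same 1593 coding nt. Reads on their first or last exons could therefore also separate them and enter the M2 share.

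Pkm as a gene was at 248, 278 and 357 FPKM at day 1, at 245, 265 and 287 FPKM at day 7 and at 267, 300 and 249 FPKM in sham. FPKM are sequenced fragments scaled to transcript length and library size, and a gene's value is the sum over its transcripts. The 3 groups overlapped in this sum. Beneath it, the transcript with the M2 exon (ENSMUST00000034834) was at 90.6, 134 and 177 FPKM at day 1, at 77.1, 67.6 and 61.0 FPKM at day 7 and at 51.1, 43.7 and 44.8 FPKM in sham. All 3 libraries at each time lay above all 3 sham libraries. The transcript with the M1 exon (ENSMUST00000163694) was at 158, 144 and 180 FPKM at day 1, at 168, 197 and 226 FPKM at day 7 and at 216, 256 and 204 FPKM in sham. All day 1 libraries were below sham, while day 7 overlapped both.

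The M2 share of the 2 transcripts averaged 44.7% ± 7.16 at day 1, 26.1% ± 5.14 at day 7 and 17.2% ± 2.35 in sham (SD, n = 3 each). It was 36.5%, 48.2% and 49.5% at day 1, 31.5%, 25.5% and 21.3% at day 7 and 19.1%, 14.6% and 18.0% in sham, so the 3 groups did not overlap. An exact permutation test over the 3 groups gave p = 0.00357, the smallest that 9 libraries can give in this design, and 0.0179 after Benjamini-Hochberg adjustment over the 5 within-library quantities tested. Leaving out each library in turn kept this p between 0.00357 and 0.0143. The mean share differed by 27.5 percentage points between day 1 and sham, by 8.85 between day 7 and sham and by -18.7 between day 7 and day 1, each with a two-sided exact permutation p of 0.1, the smallest that 3 against 3 libraries allow. A share within a library does not depend on how libraries are scaled against each other.

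**Figure D1:**
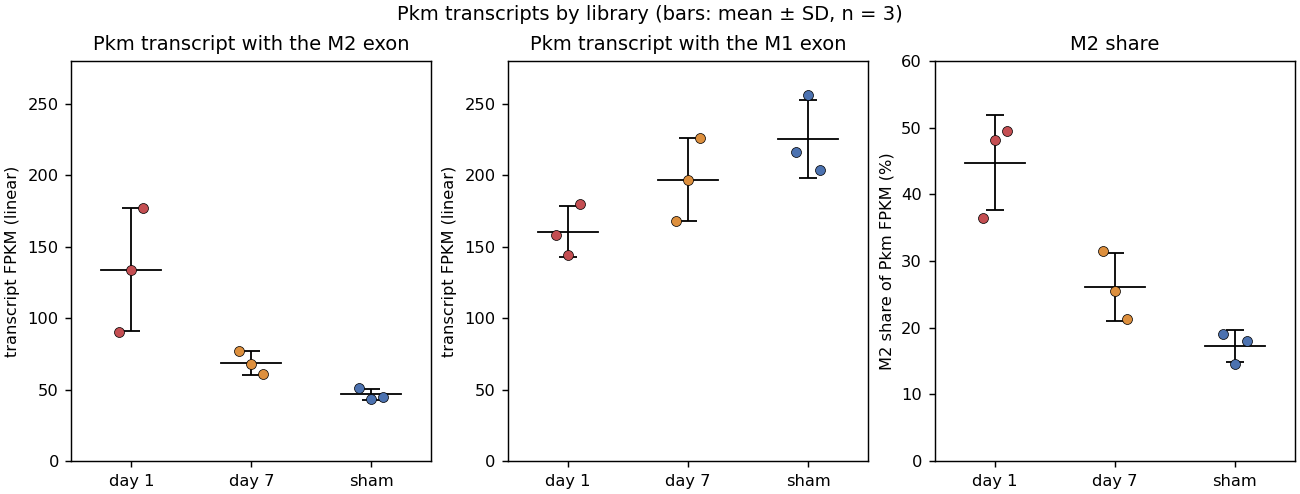
Level of the Pkm transcripts with the M2 exon (left) and the M1 exon (middle), in FPKM, and the M2 share in percent (right), for the 3 libraries of each group (points), with the mean and SD as bars. The M2 share lies between 36.5% and 49.5% at day 1, between 21.3% and 31.5% at day 7 and between 14.6% and 19.1% in sham.

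In the limma test over 20698 transcripts, the M2 transcript rose at day 1 by 1.46 ± 0.22 on the log2(FPKM + 1) scale (SE, adjusted p = 0.0067), where 18.2% of transcripts were called, that is, had an adjusted p under 0.05. At day 7 its difference from sham was 0.55 ± 0.22 (adjusted p = 0.103) beside a background of 22.6%, and its difference between day 7 and day 1 was -0.91 ± 0.22 (adjusted p = 0.0597) beside 3.57%. The M1 transcript missed the threshold at day 1, with -0.49 ± 0.15 (adjusted p = 0.0536), and at day 7, with -0.20 ± 0.15 (adjusted p = 0.359). At day 1 the M2 call held without each library in turn, with values from 1.23 to 1.71, and was lost without both libraries that carried airway markers, day 1 replicate 2 and sham replicate 1 (adjusted p = 0.0785). Without day 1 replicate 1 or day 1 replicate 3, M2 was also called at day 7 (0.55, adjusted p = 0.0367 and 0.0454), and without day 1 replicate 1 it was lower at day 7 than at day 1 (-1.16, adjusted p = 0.0213), as it was among transcripts with a mean of 5 FPKM or more (-0.91, adjusted p = 0.0491). With each library rescaled to a common total (TPM), M2 was called at day 7 (0.90, adjusted p = 0.0226). In GENCODE M21 the predicted gene Gm49759 lies over Pkm on the same strand and shares its sequence. It had no entry of its own, so reads from it would count as Pkm.

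Among factors known to steer this exon choice, 2 of 6 rose at day 1 and none fell, and 2 rose and 1 fell at day 7 (median log2 fold change 0.12 and -0.08). For this and every further list of pathway genes, the background over all tested genes was 13.4% higher and 14.7% lower at day 1, and 15.7% higher and 17.3% lower at day 7. In TPM, 601 of all 13514 tested genes were lower at day 1, where 80.3% of the calls were higher. At day 7 in TPM, 3809 were higher and 527 lower. Without both libraries that carried airway markers, 256 genes were higher and 146 lower at day 1, and 1078 and 1047 at day 7. Ptbp1, a splicing repressor of the M1 exon in human cells, averaged 28.6 ± 4.32 FPKM at day 1, 24.5 ± 3.70 FPKM at day 7 and 15.0 ± 0.752 FPKM in sham (SD, n = 3 each). It rose by 0.88 at day 1 (adjusted p = 0.0043) and by 0.67 at day 7 (adjusted p = 0.0099) on the log2(FPKM + 1) scale. Nek2, a mitotic kinase linked to M2 splicing in human myeloma cells, averaged 1.79 ± 0.114 FPKM at day 1, 1.15 ± 0.429 FPKM at day 7 and 0.338 ± 0.171 FPKM in sham, and rose at both times (1.07 and 0.67). Its sham mean lay under the minimum of 1 FPKM, which Nek2 passed through the infarct groups, so its rise is description only. Hnrnpa1 and Hnrnpa2b1, which act with Ptbp1 in human cells, were not called (0.10 and 0.14 at day 1, adjusted p = 0.621 and 0.449, and -0.19 and -0.37 at day 7, adjusted p = 0.334 and 0.0558). Srsf3, which favours the M2 exon in human cells, fell by 0.41 at day 7 (adjusted p = 0.0357). In TPM 3 of the 6 rose at each time and none fell. With both libraries that carried airway markers left out, none was called at day 1 and 1, Ptbp1, at day 7 (0.68, adjusted p = 0.0468), while Ptbp1 gave 0.88 at day 1 (adjusted p = 0.0588).

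Some marker genes of cell types were called between the groups. The background over all tested genes was 13.4% higher and 14.7% lower at day 1, and 15.7% higher and 17.3% lower at day 7. The summed level of 8 cardiomyocyte markers ranged from 17200 to 21800 FPKM at day 1, from 13600 to 24300 at day 7 and from 33300 to 36400 in sham, and 5 of 8 fell at each time. The 8 leukocyte markers summed to between 578 and 1060 FPKM at day 1, between 783 and 1070 at day 7 and between 351 and 639 in sham, with 5 and 3 of 8 higher. The 5 fibroblast markers summed to between 1470 and 1950 FPKM at day 1, between 3610 and 5000 at day 7 and between 983 and 1230 in sham, with 3 of 5 higher at each time. The 4 endothelial markers held no call, nor did the atrial, skeletal muscle, adipocyte and airway markers. Of 5 tested erythroid markers 2 rose at day 1 and 5 at day 7. In bulk samples, fewer cells of a type and less RNA per cell cannot be told apart, and the part of these cells in the results was not tested. Airway markers summed to 1660 FPKM in day 1 replicate 2 and 202 FPKM in sham replicate 1, against 16.8 or less elsewhere. Skeletal muscle markers summed to 277 FPKM in day 7 replicate 2, against 17.1 or less elsewhere, adipocyte markers to 472 FPKM in sham replicate 1, and the 4 atrial markers to anything from 229 to 10900 FPKM across the libraries. FPKM over all genes summed to between 597380 and 729940 at day 1, between 521643 and 679204 at day 7 and between 768943 and 792632 in sham. Day 7 replicate 1 had the lowest of these sums and the lowest mitochondrially encoded share (24.4%, against 34.2% to 39.8% elsewhere). The depth in reads is unknown.

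Of the 10 genes, 2 rose and 3 fell at day 1, beside 13.4% and 14.7% of all tested genes, and 1 rose and 3 fell at day 7, beside 15.7% and 17.3%. Between day 7 and day 1, none was higher and 1 was lower, beside 2.71% and 2.14%. The median log2 fold change of the 10 was -0.37 at day 1, -0.42 at day 7 and -0.07 between the times, against -0.01, -0.02 and -0.01 over all genes tested. The same sham libraries served both times. In TPM the median of all genes moved to 0.23 at day 1 and 0.30 at day 7. Higher genes then made up 80.3% and 87.8% of the calls, against 47.7% and 47.6% as deposited. With mitochondrially encoded genes left out before rescaling, the medians were 0.20 and 0.19 and the shares 80.2% and 78.7%.

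**Figure D2:**
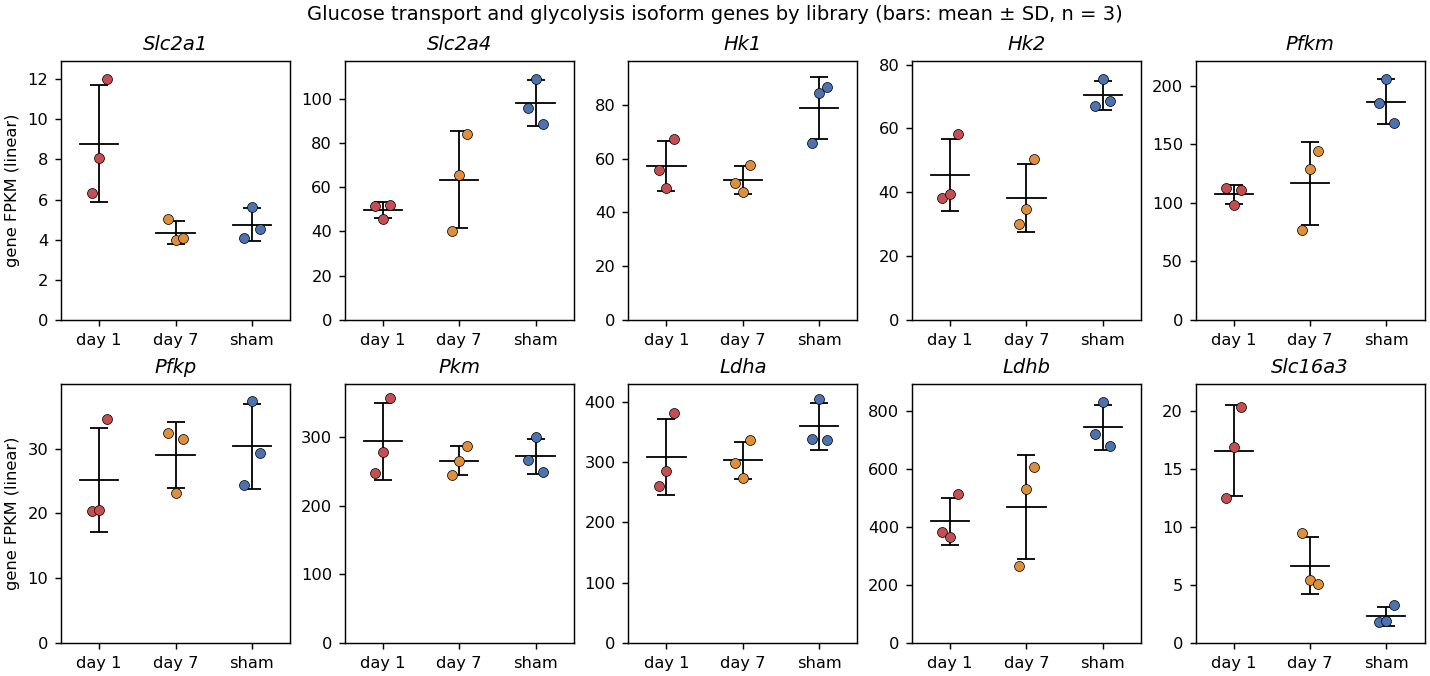
FPKM of the 10 genes (vertical axes, linear, each from 0) in the 3 libraries at day 1, at day 7 and in sham (points), with the mean and SD as bars. Slc16a3 is the gene in which all day 1 libraries (12.5 to 20.3 FPKM) lie above all day 7 libraries (5.10 to 9.51 FPKM) and these above all sham libraries (1.82 to 3.25 FPKM).

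Slc16a3, the lactate exporter MCT4, showed the largest fold change of the 10 genes at both times. It was at 12.5, 16.9 and 20.3 FPKM at day 1, at 9.51, 5.38 and 5.10 FPKM at day 7 and at 1.82, 1.87 and 3.25 FPKM in sham. No 2 groups overlapped, and the ratio of mean FPKM to sham was 7.16 at day 1 and 2.88 at day 7. On the log2(FPKM + 1) scale it rose by 2.41 ± 0.26 at day 1 (SE, adjusted p = 0.0018) and by 1.19 ± 0.26 at day 7 (adjusted p = 0.0119), and its difference between day 7 and day 1 was -1.22 ± 0.26 (adjusted p = 0.0365). The day 1 call held under all 23 alternatives, with values from 2.26 to 2.84. The day 7 call held under 21, and was lost when the most expressed transcript replaced the sum (0.74, adjusted p = 0.0579) and without both libraries with airway markers (1.09, adjusted p = 0.0573). The call between day 7 and day 1 was lost without any of sham replicates 1 and 2, day 1 replicates 2 and 3 and day 7 replicates 2 and 3 (-1.22 to -1.07, adjusted p between 0.0531 and 0.108). Of its transcripts, ENSMUST00000070653 averaged 6.02 ± 1.56 FPKM at day 1, 3.09 ± 1.21 FPKM at day 7 and 0.757 ± 0.438 FPKM in sham and rose at both times (adjusted p = 0.0053 and 0.0179), and ENSMUST00000154187 rose at day 1 (2.30, adjusted p = 0.0033). The sham means of these transcripts (0.757 and 0.719 FPKM) lay under the minimum of 1 FPKM. They passed it through the infarct groups, so their rises are description only.

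The partners and relatives of this transporter moved in both directions. Of 6 other genes of lactate and pyruvate transport, 1 rose and 4 fell at day 1, and 1 rose and 3 fell at day 7 (median -0.73 and -0.54). Emb, which encodes embigin, an accessory protein of monocarboxylate transporters, averaged 12.6 ± 2.69 FPKM at day 1, 7.61 ± 2.92 FPKM at day 7 and 2.27 ± 1.10 FPKM in sham, and rose by 2.10 at day 1 (adjusted p = 0.0041) and by 1.40 at day 7 (adjusted p = 0.0132). Bsg, which encodes basigin, the usual accessory protein of MCT1 and MCT4, averaged 371 ± 35.5 FPKM at day 1, 422 ± 44.3 FPKM at day 7 and 678 ± 67.1 FPKM in sham, and fell by 0.87 at day 1 (adjusted p = 0.0041) and by 0.68 at day 7 (adjusted p = 0.0085). Slc16a1, which encodes MCT1, a transporter that takes lactate up into cardiomyocytes, averaged 43.1 ± 5.37 FPKM at day 1, 47.4 ± 12.5 FPKM at day 7 and 77.4 ± 8.65 FPKM in sham. It fell by 0.83 at day 1 and by 0.72 at day 7 (adjusted p = 0.0139 and 0.0204). Mpc1, a subunit of the mitochondrial pyruvate carrier, fell by 0.84 at day 1 and by 0.82 at day 7 (adjusted p = 0.0117 and 0.0118). In TPM 3 fell at day 1 and 2 at day 7, with Emb the 1 that rose at each time. Emb alone was called at day 1 without both libraries with airway markers (2.14, adjusted p = 0.0453).

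Slc2a1, the constitutive glucose transporter GLUT1, was at 6.34, 8.05 and 12.0 FPKM at day 1, at 5.02, 3.96 and 4.07 FPKM at day 7 and at 4.07, 5.64 and 4.55 FPKM in sham. Day 1 lay above both other groups, which overlapped. It rose by 0.73 ± 0.20 at day 1 (adjusted p = 0.0266). At day 7 its difference from sham was -0.10 ± 0.20 (adjusted p = 0.718, 95% interval -0.55 to 0.35), and its difference from day 1 was -0.84 ± 0.20 (adjusted p = 0.0510). The day 1 call was lost without sham replicate 1, sham replicate 3 or day 1 replicate 2 (0.65, 0.71 and 0.77, adjusted p between 0.0669 and 0.0815). The difference between the times was called without day 1 replicate 1 (-1.02, adjusted p = 0.0383). Gm12868 overlaps Slc2a1 on the opposite strand, and with counting by strand not given the reads they share cannot be told apart.

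Slc2a4, the insulin-responsive transporter GLUT4, was at 51.5, 45.5 and 51.9 FPKM at day 1, at 40.3, 65.6 and 83.9 FPKM at day 7 and at 95.9, 109 and 88.6 FPKM in sham. Both infarct groups lay below sham, with a wide spread at day 7. It fell by 0.96 ± 0.23 at day 1 (adjusted p = 0.0174), and its difference at day 7 was -0.67 ± 0.23 (adjusted p = 0.0511). The day 1 call was lost without sham replicate 2 or day 1 replicate 2 (-0.88 and -0.90, adjusted p = 0.0645 and 0.0632). Without day 7 replicate 3 it was called lower at day 7 (-0.91, adjusted p = 0.0163). Leaving out each library in turn moved the day 7 difference between -0.91 and -0.39. In TPM that difference was -0.32 (adjusted p = 0.149, or -0.62 relative to the median of all genes).

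Per length, GLUT1 was far below GLUT4 in every library. The ratio of Slc2a1 to Slc2a4 FPKM was 0.123, 0.177 and 0.230 at day 1, 0.125, 0.0603 and 0.0485 at day 7 and 0.0425, 0.0520 and 0.0514 in sham. All day 1 ratios were above sham, while day 7 overlapped day 1 through replicate 1 (0.125) and sham through replicate 3 (0.0485). The exact permutation test over the 3 groups gave p = 0.0214, or 0.0536 adjusted over the 5 quantities. Leaving out sham replicate 1 gave 0.0643, and leaving out day 1 replicate 2 or day 1 replicate 3 gave 0.0571.

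The promoters of the genes that rose at day 1 are shown because hypoxia-inducible factors, which act on both genes, bind the core ACGTG. Each RefSeq window (GRCm38.p6) runs from 250 bases before to 50 bases after the start, and capitals mark ACGTG as read on the strand shown. The Slc16a3 window is chr11:120948817-120949116 on the plus strand and the Slc2a1 window is chr4:119108495-119108794 on the plus strand.
Slc16a3: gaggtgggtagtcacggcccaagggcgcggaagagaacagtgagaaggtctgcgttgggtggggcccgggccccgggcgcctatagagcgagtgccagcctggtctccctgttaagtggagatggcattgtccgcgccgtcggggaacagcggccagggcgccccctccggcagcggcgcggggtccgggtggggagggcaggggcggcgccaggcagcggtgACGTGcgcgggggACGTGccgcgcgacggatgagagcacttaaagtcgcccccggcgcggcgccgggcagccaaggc
Slc2a1: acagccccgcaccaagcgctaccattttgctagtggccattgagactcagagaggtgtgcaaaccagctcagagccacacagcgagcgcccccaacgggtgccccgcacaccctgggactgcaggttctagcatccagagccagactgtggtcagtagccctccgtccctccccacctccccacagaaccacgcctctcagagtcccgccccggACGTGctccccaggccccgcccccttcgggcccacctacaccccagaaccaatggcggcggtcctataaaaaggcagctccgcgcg
Searched on both strands, the core had 2 matches in the Slc16a3 window and 1 in the Slc2a1 window, and 8 of the 15 windows listed for 9 of the 10 genes held it. The Hk2 window held 2 matches and the Pfkm windows 3, 1, 0 and 0, and both of these genes fell at both times. Of the genes not called at day 1, Hk1 (2 and 0), Ldha (5 and 0) and Pkm (0 and 2) held it, while Ldhb and Pfkp did not. The part of the core in any of these changes was not tested. Over all 32851 windows of this length, 6447 (19.6%) held it. A match is a string of letters, and no binding was measured. RNA of the factors themselves gave 0.33 for Hif1a at day 1 (adjusted p = 0.133) and 0.01 at day 7 (adjusted p = 0.974), while Epas1 fell by 0.40 at both times (adjusted p = 0.0331 and 0.0307).

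Of 10 other tested genes of glucose transport and its traffic, 3 rose and none fell at day 1, and 2 rose and 1 fell at day 7 (median 0.03 and 0.36). Tbc1d1, a Rab GTPase-activating protein that holds GLUT4 vesicles inside the cell, averaged 12.5 ± 4.76 FPKM at day 1 and 5.22 ± 0.734 FPKM in sham, and rose by 1.05 (adjusted p = 0.0181). Its relative Tbc1d4 averaged 10.5 ± 1.61 FPKM at day 7 and 16.6 ± 1.16 FPKM in sham, and fell by 0.63 (adjusted p = 0.0182). The other calls were transporter genes of low level, Slc2a10 (0.61 at day 1 and 0.77 at day 7), Slc2a6 (0.58 at day 1) and Slc2a3 (0.50 at day 7), each with a group mean of 2.33 FPKM or less. Their sham means (0.919, 0.598 and 0.901 FPKM) lay under the minimum of 1 FPKM, which they passed through the infarct groups, so these rises are description only. In TPM 4 rose at day 1 and 5 at day 7 and none fell, and without both libraries with airway markers none was called at either time (Tbc1d1 gave 1.07 at day 1, adjusted p = 0.105).

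Hk2, the insulin-responsive hexokinase of muscle, was at 38.1, 39.5 and 58.3 FPKM at day 1, at 29.9, 34.6 and 50.3 FPKM at day 7 and at 67.0, 75.6 and 68.6 FPKM in sham. Every infarct library lay below every sham library. It fell by 0.65 ± 0.21 at day 1 (adjusted p = 0.0490) and by 0.89 ± 0.21 at day 7 (adjusted p = 0.0155). The day 1 call was lost without any of sham replicates 1, 2 and 3, day 1 replicates 1 and 2 and day 7 replicate 2 (-0.69 to -0.54, adjusted p between 0.0650 and 0.149), and in TPM (-0.38, adjusted p = 0.0890, or -0.61 relative to the median of all genes). The day 7 call was lost without sham replicate 2 (-0.84, adjusted p = 0.0556).

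Hk1, the broadly expressed hexokinase, was at 55.6, 49.2 and 67.5 FPKM at day 1, at 50.9, 47.5 and 57.6 FPKM at day 7 and at 65.7, 84.5 and 86.6 FPKM in sham. Day 1 overlapped sham, while day 7 lay below it. Its difference at day 1 was -0.45 ± 0.15 (adjusted p = 0.0530), and it fell by 0.59 ± 0.15 at day 7 (adjusted p = 0.0204). The day 7 call was lost without sham replicate 2, sham replicate 3, day 7 replicate 1 or day 7 replicate 2 (-0.57 to -0.51, adjusted p between 0.0570 and 0.0721), and in TPM (-0.23, adjusted p = 0.231, or -0.53 relative to the median). At day 1 it was called without sham replicate 1 or day 1 replicate 3 (-0.58 and -0.57, adjusted p = 0.0379 and 0.0256). Of its 3 main transcripts, ENSMUST00000130422 and ENSMUST00000072357 fell at day 7 (0.89 and 0.75, adjusted p = 0.0110 and 0.0302) and ENSMUST00000099691, the most abundant, was not called. The ratio of Hk1 to Hk2 FPKM averaged 1.28 at day 1, 1.39 at day 7 and 1.11 in sham as geometric means, and the exact permutation test over the groups gave p = 0.275. Hk1os lies antisense to Hk1 and shares sequence with it, and with counting by strand not given its reads cannot be told apart.

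Pfkm, the muscle form of phosphofructokinase, was at 113, 98.0 and 111 FPKM at day 1, at 76.7, 129 and 144 FPKM at day 7 and at 185, 206 and 168 FPKM in sham. All infarct libraries lay below all sham libraries. It fell by 0.79 ± 0.22 at day 1 (adjusted p = 0.0278) and by 0.71 ± 0.22 at day 7 (adjusted p = 0.0353). Without sham replicate 1, 2 or 3 or day 1 replicate 1 the call was lost at both times, and without day 1 replicate 2 at day 1 (adjusted p between 0.0506 and 0.0928 at day 1, with -0.86 to -0.71, and between 0.0504 and 0.111 at day 7, with -0.79 to -0.64). In TPM it stayed called at day 1 (-0.51, adjusted p = 0.0394) and was not called at day 7 (-0.36, adjusted p = 0.0953, or -0.65 relative to the median). The day 1 call of Pfkm was lost when rescaled without mitochondrially encoded genes (-0.57, adjusted p = 0.0531) and after quantile normalization (-0.59, adjusted p = 0.0591). Senp1 and the predicted gene Gm26513 overlap it.

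Pfkp, the platelet form, was at 20.4, 20.6 and 34.5 FPKM at day 1, at 32.4, 23.1 and 31.5 FPKM at day 7 and at 24.4, 37.4 and 29.4 FPKM in sham. The 3 groups overlapped. Its differences were -0.28 ± 0.23 at day 1 (adjusted p = 0.397, 95% interval -0.82 to 0.25) and -0.06 ± 0.23 at day 7 (adjusted p = 0.860, 95% interval -0.59 to 0.47). The ratio of Pfkp to Pfkm was 0.181, 0.210 and 0.312 at day 1, 0.422, 0.178 and 0.218 at day 7 and 0.132, 0.182 and 0.176 in sham, and the exact permutation test gave p = 0.264. Day 7 replicate 1, with the lowest Pfkm and the lowest cardiomyocyte marker sum (13600 FPKM), held the highest ratio. The protein-coding gene Pitrm1 overlaps Pfkp on the opposite strand.

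Of 6 tested genes, 5 for enzymes that set fructose 2,6-bisphosphate, the activator of phosphofructokinase, and Fbp2 for a fructose 1,6-bisphosphatase, 1 rose and 2 fell at day 1, and none rose and 2 fell at day 7 (median -0.28 and -0.53). Pfkfb2, the form typical of heart, averaged 16.0 ± 2.67 FPKM at day 1, 11.6 ± 2.55 FPKM at day 7 and 29.5 ± 2.89 FPKM in sham, and fell by 0.85 at day 1 (adjusted p = 0.0089) and by 1.29 at day 7 (adjusted p = 0.0027). Tigar, which degrades the activator, fell by 0.78 at day 1 and by 0.70 at day 7 (adjusted p = 0.0172 and 0.0236). Pfkfb4 rose by 0.69 at day 1 (adjusted p = 0.0174). In TPM 1 of the 6 rose and 1 fell at day 7, and without both libraries with airway markers none was called at day 1, where Pfkfb2 gave -0.96 (adjusted p = 0.0630).

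For Pkm as a gene, the difference from sham was 0.10 ± 0.15 at day 1 (adjusted p = 0.645, 95% interval -0.24 to 0.44) and -0.03 ± 0.15 at day 7 (adjusted p = 0.882, 95% interval -0.38 to 0.31). In TPM it was called higher at day 1 (0.38, adjusted p = 0.0435, or 0.15 relative to the median of all genes).

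Ldha, the M subunit of lactate dehydrogenase, was at 261, 285 and 381 FPKM at day 1, at 299, 274 and 336 FPKM at day 7 and at 338, 405 and 337 FPKM in sham. Day 1 overlapped sham, and day 7 lay just below it. Its differences were -0.23 ± 0.16 at day 1 (adjusted p = 0.309, 95% interval -0.60 to 0.13) and -0.25 ± 0.16 at day 7 (adjusted p = 0.264, 95% interval -0.62 to 0.12). In GENCODE M21, 4 processed copies of Ldha share at least 95% of their sequence with it over at least 150 nt and had no entry of their own.

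Ldhb, the H subunit, was at 381, 365 and 513 FPKM at day 1, at 266, 530 and 606 FPKM at day 7 and at 720, 829 and 679 FPKM in sham. All infarct libraries lay below all sham libraries, yet the gene missed the threshold, with -0.83 ± 0.29 at day 1 (adjusted p = 0.0624) and -0.75 ± 0.29 at day 7 (adjusted p = 0.0780). Without day 7 replicate 1, its lowest library, it was called at day 1 (-0.83, adjusted p = 0.0076), and without day 7 replicate 3 at both times (-0.83 and -0.98, adjusted p = 0.0498 and 0.0396). Leaving out each library in turn moved the day 7 difference between -0.98 and -0.38. In TPM Ldhb was called at neither time (-0.55 at day 1 and -0.39 at day 7, adjusted p = 0.0661 and 0.142, or -0.79 and -0.69 relative to the median of all genes). Its main transcript, ENSMUST00000032373, averaged 400 ± 69.8 FPKM at day 1, 401 ± 128 FPKM at day 7 and 719 ± 72.5 FPKM in sham, and was called lower at day 1 (-0.85, adjusted p = 0.0457) and at day 7 (-0.89, adjusted p = 0.0348). These transcript calls were lost without any of 6 libraries each (adjusted p up to 0.143 and 0.111). A short Ldhb transcript, ENSMUST00000130817 of 437 nt, was at 0.0288, 0.516 and 14.9 FPKM at day 1, at 0.541, 70.9 and 76.0 FPKM at day 7 and at 0.00645, 0.000495 and 8.32 FPKM in sham. It was high in day 7 replicates 2 and 3 alone, was not called, and made up part of the summed Ldhb level there. Gm5514 is a near copy of Ldhb, 98.0% identical over 1002 nt, with no entry of its own.

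The ratio of Ldha to Ldhb was 0.685, 0.781 and 0.742 at day 1, 1.12, 0.518 and 0.554 at day 7 and 0.470, 0.488 and 0.497 in sham. No infarct library overlapped sham. In day 7 replicates 2 and 3, the short transcript ENSMUST00000130817 held 13.4% and 12.5% of the summed Ldhb, against 2.9% or less elsewhere. Their ratios are therefore lower than with the main Ldhb transcript alone. The exact permutation test over the 3 groups gave p = 0.15 (0.25 adjusted over the 5 quantities), and p = 0.00357, unadjusted, without day 7 replicate 1, whose ratio stood apart. Leaving out each library in turn gave unadjusted p from 0.00357 to 0.311, under 0.05 only without day 7 replicate 1. That library also had the lowest cardiomyocyte marker sum and the lowest mitochondrially encoded share, and their part in its ratio was not tested.

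**Figure D3:**
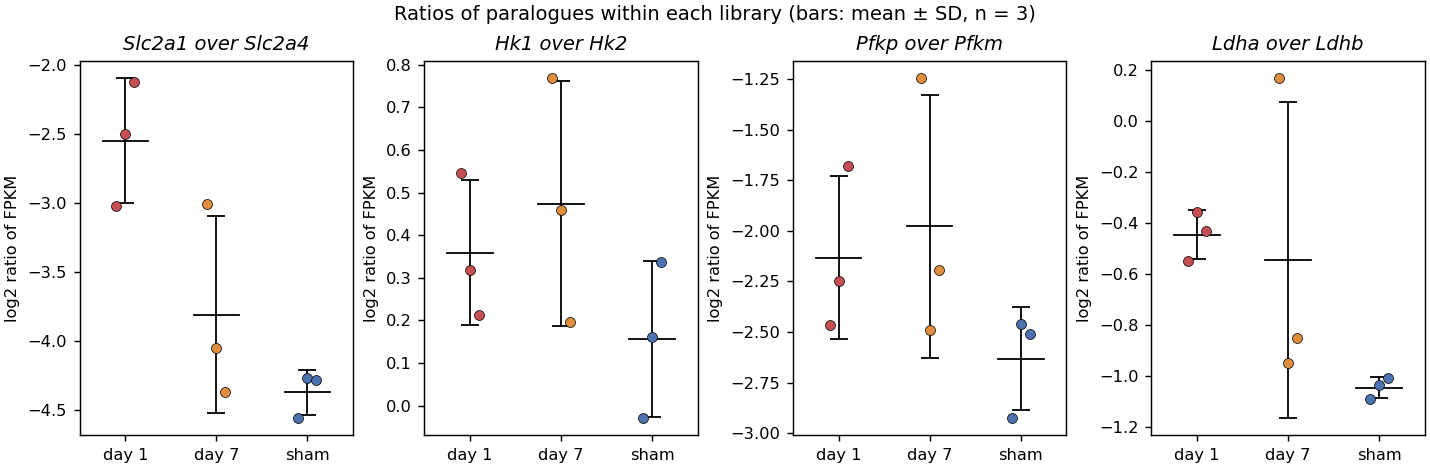
Log2 ratio of FPKM within each library (vertical axes, each with its own range) for Slc2a1 over Slc2a4, Hk1 over Hk2, Pfkp over Pfkm and Ldha over Ldhb, for the 3 libraries of each group (points), with the mean and SD as bars. All day 1 values lie above sham for Slc2a1 over Slc2a4 and for Ldha over Ldhb, and day 7 replicate 1 (left point of its group) is the highest of its group in every panel.

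**Figure D4:**
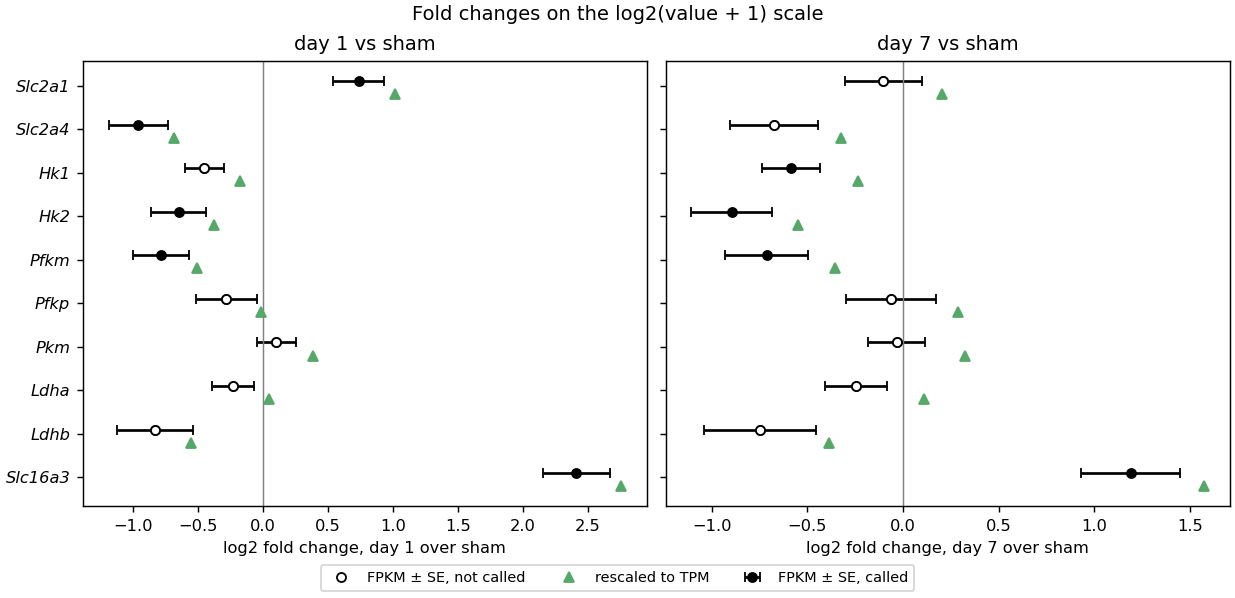
Log2 fold change of the 10 genes at day 1 over sham (left) and day 7 over sham (right) on the log2(value + 1) scale, from FPKM as deposited (circles with SE, filled where called) and after rescaling to TPM (triangles). The triangles lie to the right of the circles, and for Pkm, Ldha, Pfkp and Slc2a1 at day 7, and Ldha at day 1, rescaling changed the sign of a difference that was not called.

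Without both libraries with airway markers (day 1 replicate 2 and sham replicate 1), Slc16a3 alone of the 10 stayed called at day 1 (2.28, adjusted p = 0.0376) and Hk1 alone at day 7 (-0.71, adjusted p = 0.0291). Over all tested genes in that setting, 256 were higher and 146 lower at day 1, and 1078 and 1047 at day 7. The values of the other genes called at day 1 were then 0.68 for Slc2a1, -0.91 for Slc2a4, -0.60 for Hk2 and -0.73 for Pfkm (adjusted p between 0.128 and 0.223).

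In sham the levels per length ran Ldhb, Ldha, Pkm, Pfkm, Slc2a4, Hk1, Hk2, Pfkp, Slc2a1 and Slc16a3, from a mean of 742 to a mean of 2.32 FPKM. The sham libraries of Hk1 (65.7 to 86.6 FPKM) and Hk2 (67.0 to 75.6 FPKM) overlapped, while every other pair of neighbours was separated. At day 1 Slc16a3 (12.5 to 20.3 FPKM) stood above Slc2a1 (6.34 to 12.0 FPKM), Hk1 stood above Slc2a4, Ldhb, Ldha and Pkm each overlapped their neighbours, and so did Hk1, Slc2a4 and Hk2. At day 7 the order was that of sham but for Slc16a3, which again stood above Slc2a1. Ldhb, Ldha and Pkm overlapped there, as did the neighbours from Pfkm through Slc2a4, Hk1 and Hk2 to Pfkp.

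Of 14 other tested glycolytic enzymes, 2 rose and 5 fell at day 1, and 1 rose and 2 fell at day 7 (median -0.28 and -0.11). Eno2, the neuronal form of enolase, averaged 4.53 ± 1.99 FPKM at day 1, 6.10 ± 1.82 FPKM at day 7 and 2.01 ± 0.225 FPKM in sham, and rose by 0.82 at day 1 and by 1.21 at day 7 (adjusted p = 0.0387 and 0.0100). Hk3, the hexokinase of leukocytes, averaged 3.71 ± 1.74 FPKM at day 1, 1.18 ± 0.346 FPKM at day 7 and 0.927 ± 0.375 FPKM in sham, and rose by 1.25 at day 1 (adjusted p = 0.0110). Its sham mean also lay under the minimum of 1 FPKM, which Hk3 passed through the infarct groups. Ldhd, a mitochondrial D-lactate dehydrogenase, fell by 0.73 at day 1 and by 0.89 at day 7 (adjusted p = 0.0213 and 0.0107), and Gpi1, glucose phosphate isomerase, fell by 0.35 at day 7 (adjusted p = 0.0475). Of higher level, Aldoa, Tpi1 and Pgam2 fell at day 1 by 0.65, 0.63 and 0.62 (adjusted p = 0.0254, 0.0283 and 0.0294) and were not called at day 7. They averaged 824, 204 and 318 FPKM at day 1, against 1280, 317 and 487 FPKM in sham. In TPM 4 rose and 2 fell at day 1, and 1 rose and 1 fell at day 7. None was called at day 1 without both libraries with airway markers, and Eno2 alone at day 7 (1.27, adjusted p = 0.0225).

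Pyruvate dehydrogenase, which sends pyruvate into the mitochondrial citric acid cycle, had 12 tested genes with its regulators, of which 1 rose and 9 fell at day 1 and 1 rose and 7 fell at day 7 (median -0.56 and -0.58), beside a background of 13.4% higher and 14.7% lower at day 1, and 15.7% higher and 17.3% lower at day 7. Pdhb, a subunit of its first enzyme, averaged 172 ± 21.1 FPKM at day 1, 189 ± 43.7 FPKM at day 7 and 329 ± 43.8 FPKM in sham, and fell by 0.93 at day 1 and by 0.81 at day 7 (adjusted p = 0.0103 and 0.0148). Among the kinases that inhibit the complex, Pdk1 fell by 0.85 at day 1 and by 0.89 at day 7 (adjusted p = 0.0153 and 0.0123). Pdk2 fell by 0.74 at day 1 and by 0.77 at day 7 (adjusted p = 0.0178 and 0.0143), while Pdk3 rose by 0.90 at day 1 and by 0.75 at day 7 (adjusted p = 0.0039 and 0.0070). Pdk3 was at 4.44 ± 0.562 FPKM at day 1, 3.91 ± 0.828 FPKM at day 7 and 1.91 ± 0.195 FPKM in sham. Dld, the shared dehydrogenase subunit, fell by 0.78 at day 7 (adjusted p = 0.0187). In TPM 1 rose and 4 fell at day 1 and 1 rose and 5 fell at day 7. Without both libraries with airway markers Pdk3 alone was called at day 1 (0.94, adjusted p = 0.0480), and Pdk3 and Pdk1 at day 7 (0.80 and -0.99, adjusted p = 0.0322 and 0.0374).

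Of 13 tested glycogen genes, 1 rose and 3 fell at day 1, and none rose and 4 fell at day 7 (median -0.36 and -0.52). The glycogen-targeting phosphatase subunits Ppp1r3c at day 1 (32.8 ± 6.32 FPKM, against 65.9 ± 13.9 FPKM in sham) and Ppp1r3a at day 7 (34.2 ± 11.4 FPKM, against 65.4 ± 11.1 FPKM in sham) fell by 0.98 and 0.96 (adjusted p = 0.0216 and 0.0176). Gbe1, the branching enzyme, fell by 0.66 at day 1 and by 0.53 at day 7. Ugp2, which makes the UDP-glucose that glycogen is built from, fell by 0.94 at day 1, Pgm1 rose by 0.73 at day 1, and the phosphorylase genes Pygm and Pygb fell by 0.70 and 0.56 at day 7. In TPM 1 rose and 2 fell at day 1 and 2 rose and 1 fell at day 7, and without both libraries with airway markers none was called at either time, where Gbe1 gave -0.66 at day 1 (adjusted p = 0.0934).

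Of 8 tested regulators of the 10 genes, 2 rose and 3 fell at day 1, and 1 rose and 4 fell at day 7 (median -0.34 and -0.19). Ppargc1a, a coactivator of mitochondrial and GLUT4 genes, averaged 26.0 ± 3.72 FPKM at day 1, 16.8 ± 7.74 FPKM at day 7 and 56.2 ± 10.1 FPKM in sham, and fell by 1.08 at day 1 and by 1.79 at day 7 (adjusted p = 0.0387 and 0.0073). Klf15, which activates Slc2a4 in muscle cells, averaged 9.04 ± 2.91 FPKM at day 7 and 23.0 ± 3.22 FPKM in sham, and fell by 1.30 (adjusted p = 0.0071). Mef2a, another activator of Slc2a4, fell by 0.44 at day 7 (adjusted p = 0.0084). Myc rose by 0.85 at day 1 (adjusted p = 0.0168), and Trp53 rose by 0.52 at day 1 and by 0.70 at day 7 (adjusted p = 0.0113 and 0.0047). In TPM 3 rose and none fell at day 1, where Ppargc1a gave -0.81 (adjusted p = 0.0638), and 2 rose and 2 fell at day 7. Without both libraries with airway markers none was called at day 1, and at day 7 1 rose and 3 fell, among them Ppargc1a (-1.78, adjusted p = 0.0391) and Klf15 (-1.21, adjusted p = 0.0403).

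**Figure D5:**
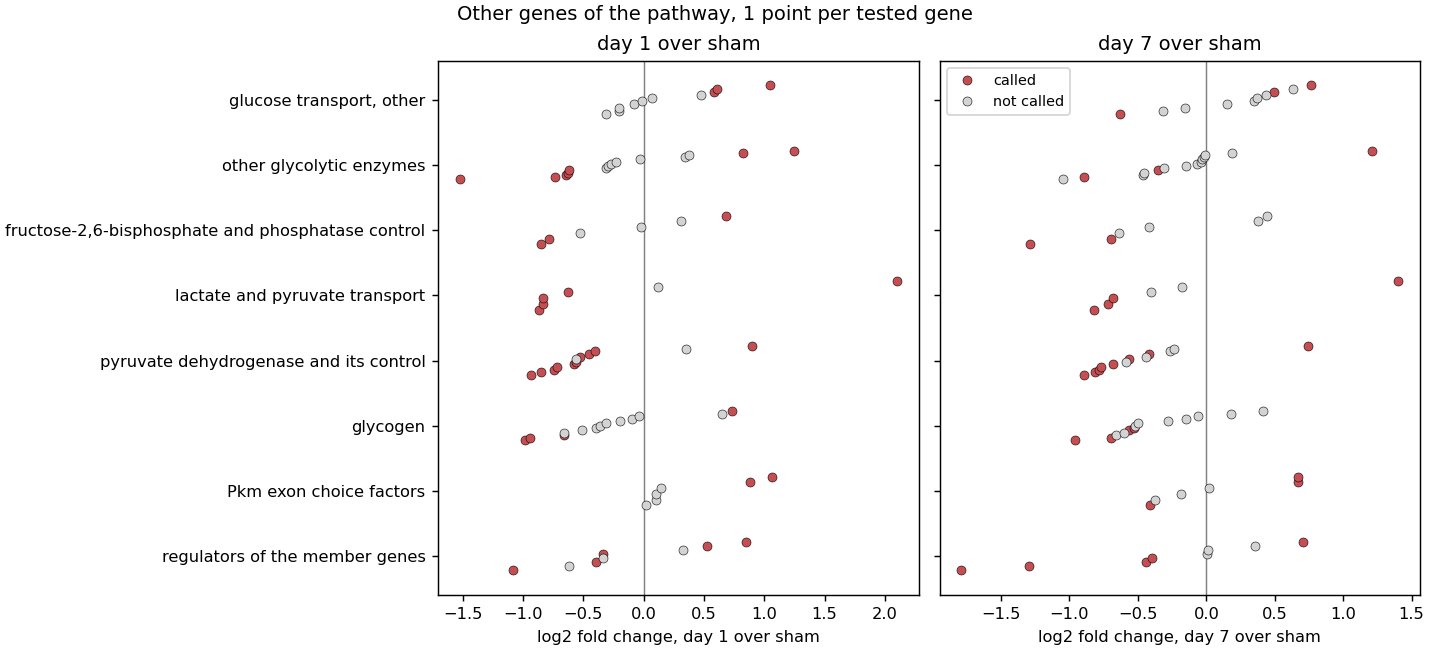
Log2 fold change on the log2(FPKM + 1) scale at day 1 over sham (left) and day 7 over sham (right) of the other tested genes of the pathway, 1 point a gene, in rows by function, coloured where called. Over the 8 lists, 13 genes rose and 26 fell at day 1 and 8 rose and 24 fell at day 7, of 75 tested.

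Over the 8 lists with 82 genes, 75 were tested, of which 13 rose and 26 fell at day 1 and 8 rose and 24 fell at day 7. That is 17.3% higher and 34.7% lower at day 1, and 10.7% higher and 32% lower at day 7, beside a background over all tested genes of 13.4% higher and 14.7% lower at day 1, and 15.7% higher and 17.3% lower at day 7. The median log2 fold change of all 75 was -0.29 at day 1 and -0.31 at day 7. In TPM 18 rose and 13 fell at day 1 and 16 rose and 12 fell at day 7. Over all genes tested in TPM, higher genes made up 80.3% of the calls at day 1 and 87.8% at day 7. The medians of the 75 in TPM, -0.02 at day 1 and 0.01 at day 7, lay below those of all genes in TPM (0.23 and 0.30), as they did in FPKM. Falls outnumbered rises after quantile normalization (15 rose and 18 fell at day 1, 7 and 17 at day 7) and with median-ratio size factors (13 and 27, 8 and 24). Without both libraries with airway markers 2 rose and none fell at day 1, and 5 rose and 9 fell at day 7. Over all tested genes 256 were then higher and 146 lower at day 1, against 1817 and 1993 with all 9 libraries. At day 7 these counts were 1078 and 1047, against 2127 and 2341. The medians of the 75 in that setting were -0.267 at day 1 and -0.268 at day 7. Between day 7 and day 1, limma called none of the 75 in either direction, with 14 at an unadjusted p under 0.05. Of the 38 genes that the naming rule picked from these lists, 11 have an exon over an exon of another gene, among them Ptbp1, Emb, Hk3 and Mpc1, whose overlapping genes lie on the opposite strand, so that reads cannot be told apart where counting did not use strand. Pfkfb2 overlaps Yod1 on the opposite strand and Gm29427 on the same strand, and strand would not separate the reads it shares with Gm29427.

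The genes whose levels followed each of the 10 most closely across the 9 libraries were found by the mean absolute difference of centred log2(FPKM + 1) profiles. Cpt1b, the muscle form of the enzyme that brings fatty acids into mitochondria, was among the closest 2 for Slc2a4 (0.064) and Pfkm (0.045), and Tango2 for Slc2a4 (0.074) and Ldhb (0.075). Cpt1b averaged 96.0 FPKM at day 1, 111 FPKM at day 7 and 181 FPKM in sham. The other close genes were Rbm38 for Pfkm (0.045), Actr3b for Ldhb (0.079), Abcc9 and Setd8 for Hk2 (0.083 and 0.092), Ipo5 and Kpna3 for Hk1 (0.054 and 0.057) and P2ry2 and Rapgef1 for Pfkp (0.055 and 0.076). Tsr1 and Alyref were closest to Pkm (0.047 and 0.058), Ptp4a1 and Ppp2r2d to Ldha (0.060 and 0.061), Ranbp1 and Hspa5 to Slc2a1 (0.117 and 0.122) and Adam8 and Prc1 to Slc16a3 (0.239 and 0.243). Adam8, a membrane protease of leukocytes, averaged 12.8 FPKM at day 1, 4.17 FPKM at day 7 and 1.29 FPKM in sham. Prc1, a protein of the dividing cell's spindle, averaged 9.59 FPKM at day 1, 4.74 FPKM at day 7 and 1.26 FPKM in sham. A distance also depends on how much a gene itself varied, so the distances do not rank the 10 genes against each other. The mean absolute deviation of a gene's own profile was 0.126 for Pkm, 0.176 for Ldha, 0.35 for Slc2a1 and 0.915 for Slc16a3. These distances describe the 9 libraries, which share their groups, and carry no test.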

How the data were processed

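RNA from wild-type hearts (9 libraries) was extracted (TRIzol) and libraries were built (VAHTS Universal V6 kit), per the labels' protocols. FastQC 0.11.9, HISAT2 2.1.0, HTSeq 0.11.2 and build GRCm39 were used, per the submitters' processing notes. Annotation release, strand use and the tool dividing reads among transcripts were not stated in those notes. The authors deposited FPKM per transcript (55361 entries). Of the positive values, 11.8% were under 1e-06 FPKM, so whole reads could not be recovered, the depth is unknown and no counting intervals are given.

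From these files, a gene's FPKM was summed over its transcripts (25468 genes). Genes (13514) and transcripts (20698) with a mean of 1 FPKM or more were tested on the log2(FPKM + 1) scale by limma 3.58.1 (R 4.3.3), with a variance trend and 1 mean per group over the 9 libraries. Adding 1 understates the change of low genes. P-values are two-sided, adjusted with the Benjamini-Hochberg method over all features tested, and called at 0.05. Errors are SD over libraries or the SE from limma. The procedure was tested on simulated data. Ratios and the M2 share were tested with exact permutations of the libraries. Exons, overlaps and near copies (blastn 2.17.0) come from GENCODE M21, and promoters from RefSeq.

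The 10 genes, the pathway lists and the marker lists were chosen with earlier results of these data known. All 10 genes are named, with up to 4 called genes of each list with the largest change in a comparison with sham, and the 2 genes of at least 5 FPKM closest to each of the 10. A gene that the rule picked is not reported here. Hif1a, Hnrnpa1, Hnrnpa2b1, Aldoa, Tpi1 and Pgam2 were named after their values were seen. Alternatives were another pseudocount (0.1), other filters (none, or 5 FPKM), rescaling, variance models, weights, a replicate block, the most expressed transcript and leaving out libraries. Counts of the pathway lists under rescaling and without libraries were added after seeing the data.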

Additional observations from a re-analysis of the deposited data

Results flagged for a closer look

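Slc16a3 was flagged because its change from sham differed between the times by the test of day 7 against day 1 itself. The difference was -1.22 ± 0.26 on the log2(FPKM + 1) scale (SE, limma adjusted p = 0.0365), with all 3 day 7 libraries below all 3 day 1 libraries. It was lost under 11 of 23 alternatives, with values from -1.56 to -1.07 and adjusted p from 0.0187 to 0.157. Its transcript ENSMUST00000154187 was flagged for the same reason, at 2.78, 0.995 and 1.91 FPKM at day 7 and 6.46, 6.98 and 8.39 FPKM at day 1, a difference of -1.56 (adjusted p = 0.0218). The sham mean of this transcript (0.719 FPKM) lay under the minimum of 1 FPKM, which it passed through the infarct groups. Its difference is therefore description only.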

How the results depend on the processing

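Of the calls for the 10 genes, the rise of Slc16a3 at day 1 held under all 23 alternatives; the others were lost under 2 to 13. With the most expressed transcript, which is the M1 transcript, Pkm reversed at day 1 (-0.49, adjusted p = 0.0430), no member was higher at day 7 (0), and Hk1 over Hk2 differed by 0.58 (day 7 against sham) and 0.41 (day 7 against day 1). The next counts are genes higher, genes lower and members lower unless named. In TPM, 601 genes were lower at day 1, 3809 higher and 527 lower at day 7, 113 higher and 72 lower between day 7 and day 1, with members lower at 1 (day 7) and 0 (between times), and transcripts at 613 lower (day 1), 3841 higher and 712 lower (day 7), and 176 and 157 (between times). Rescaled without mitochondrial genes, counts were 3583 and 886 at day 1 (members lower 1), 3844 and 1042 at day 7 (1) and members lower 2 between times. Quantile normalization gave members lower 1 at day 1 and 2 between times. Without a filter, transcripts lower at day 1 were 952, at day 7 1361 and 1378, and between times 125 and 140, with members lower 0. At a mean of 5 FPKM, genes higher were 1199, 1310 and 242, and transcripts higher at day 7 1302. The fit of 2 groups only gave 78 and 88 between times (members 0). Array weights gave 3027 lower at day 1 (members 5), and 584 and 466 between times (members 2). With the replicate number as a block, genes between times were 144 and 93 (members 0), transcripts lower at day 1 1355, and between times 143 and 139; same-numbered libraries did not deviate together (residual correlations -0.37 to 0.269, over 0.1 in 4 of 9 pairs; 3 of 9 libraries correlated best with their own number), so the numbers were not taken as pairs. Dropping both airway-marker libraries, genes were 256 and 146 at day 1 (members 1 higher, 0 lower), 1078 and 1047 at day 7 (0 and 1) and 34 and 26 between times (0 lower), transcripts 58 and 52, 719 and 763, and 43 and 52, and Slc2a1 over Slc2a4 had an exact p of 0.162. Leaving out each library in turn gave 968 to 1957 genes higher and 790 to 2299 lower at day 1, 1124 to 2276 and 1042 to 2618 at day 7, and 75 to 275 and 62 to 244 between times; members 1 to 2 higher and 0 to 4 lower at day 1, 0 to 5 lower at day 7 and 0 to 2 lower between times; transcripts 603 to 1889 and 432 to 2469, 925 to 2235 and 906 to 2831, and 87 to 287 and 87 to 300. The exact p over 3 groups ranged from 0.0107 to 0.0643 for Slc2a1 over Slc2a4 and from 0.00357 to 0.311 for Ldha over Ldhb. Fewer libraries or genes were tested in several of these; otherwise the cause was not tested. Reads per library are unknown, which limits the values of low genes such as Slc16a3 and Slc2a1.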
